A study of Mus musculus with 16 samples.

Results

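The cytosolic ribosomal protein genes were examined in mouse liver as one family. Members were all genes whose symbol, matched from the accession of an array probe, has the form Rps or Rpl with a number, plus Rpsa, Rplp0, Rplp1 and Rplp2, provided that 8 or more of the 16 arrays showed a probe clearly brighter than its local background (the scanner's flag for a signal well above background). Of 89 such symbols in the RefSeq gene table, 83 had a probe and 82 passed, among 25790 features tested. These 82 members comprise 32 genes of the small ribosomal subunit and 50 of the large one. The only measured gene that failed was Rpl3l, a paralog of Rpl3 known from skeletal muscle and heart, which was well above background on 0 arrays. The member nearest the limit was Rpl39l, which carried that flag on 4 arrays of the ctrl-inh group and on 7 of the miR-185-inh group, and the other 81 passed on all 16. Rps23, Rpl32l, Rpl6l, Rps12l1, Rps3a2 and Rps3a3 had no matched probe and are not analysed here.

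All 16 livers came from male ApoE KO mice, which lack apolipoprotein E, on a high-fat diet. A stated age of 8 weeks and a collection point of 8 weeks are given for every sample, and no mouse with intact ApoE or on another diet is included. The 8 mice of the miR-185-inh group received lentivirus encoding an antisense RNA to the microRNA miR-185, and the 8 mice of the ctrl-inh group received the control inhibitor, of unstated make-up. Total RNA of whole liver was labelled with Cy3 and hybridised to one-colour Agilent arrays, 1 array per sample, so fewer cells of a type and less RNA per cell cannot be told apart. Slide 1 carried the ctrl-inh group and slide 2 the miR-185-inh group, each scanned separately, and slide, scan and treatment therefore cannot be told apart. Nothing in the labels states that numbered samples are separate animals, so every p-value reflects sample-to-sample spread that may be partly technical. Between 58.7% and 74.8% of the non-control spots were well above background, no spot was saturated, and the number of arrays limits the precision.

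Ribosomal proteins assemble with ribosomal RNA into the small subunit, which reads the mRNA, and the large subunit, which joins amino acids. The liver exports much of the plasma protein and needs a large stock of ribosomes. Most mRNAs of this family begin with a C followed by an unbroken run of pyrimidines, the terminal oligopyrimidine (TOP) tract, through which mTOR and the RNA-binding protein Larp1 control their translation together. That control acts on translation and on mRNA stability, and an array measures only the mRNA.

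Start sites of 61 of the 82 members were found among RefSeq promoter windows of build GRCm38.p6, each 300 bases long, with 250 before and 50 from the annotated start. A C at the annotated start followed by at least 4 pyrimidines, read on the gene strand, was present in 13 of these 61 members (21.3%) and in 3.01% of the 27025 genes in the table. The following windows of 30 bases, 15 before and 15 from the start, show that shared feature, with the tract in capitals.
Rpl15 (chr14:18270972-18271001, minus strand): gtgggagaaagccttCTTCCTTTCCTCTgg
Rpl28 (chr7:4792950-4792979, plus strand): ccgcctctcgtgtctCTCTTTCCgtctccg
Rpl35 (chr2:39005117-39005146, minus strand): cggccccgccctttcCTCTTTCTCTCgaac
Rpl38 (chr11:114668565-114668594, plus strand): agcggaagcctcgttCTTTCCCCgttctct
Rplp2 (chr7:141447636-141447665, plus strand): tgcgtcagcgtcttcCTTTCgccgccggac
Rps6 (chr4:86857353-86857382, minus strand): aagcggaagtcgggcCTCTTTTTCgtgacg
Rps10 (chr17:27635230-27635259, minus strand): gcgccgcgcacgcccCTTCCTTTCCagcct
Rps18 (chr17:33955651-33955680, minus strand): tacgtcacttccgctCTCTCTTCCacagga
Rps27 (chr3:90213634-90213663, minus strand): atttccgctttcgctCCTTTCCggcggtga

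The other carriers of the tract were Rpl14, Rpl35a, Rps15a and Rps21. The windows differ in the length and order of the tract, which is 13 bases long in Rpl15 and 5 in Rplp2. The same windows were searched on both strands for 4 sequences. CCGGAAG, the core bound by the factor GABP, was present in 26 of the 61 members (42.6%) against 9.93% of all genes. CTCGCGA, the core of a palindrome found at promoters without a TATA box, was present in 14 members (23.0%) against 2.22% of all genes. AAGATGG, which contains the core of the YY1 motif, was present in 10 members (16.4%) against 7.28%, and TATAAA in 7 members (11.48%) against 15.7%. The last letters of CCGGAAG are the first of AAGATGG, so the pair can overlap at one site. Carriers of CTCGCGA, capitalised here, are shown because its share differs most, as a ratio, from that of all genes among these 4.
Rpl10a (chr17:28328525-28328551, plus strand): acgggcaactCTCGCGAgaacgcgggc
Rpl12 (chr2:32961649-32961675, plus strand): gccagcggttCTCGCGAgagctgagct
Rps15 (chr10:80292416-80292442, plus strand): cccggcagagCTCGCGAtaactgcgca
Rps28 (chr17:33824546-33824572, minus strand): cgcgtgcggtCTCGCGAgagcgaaagt

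No ribosomal protein gene was called higher or lower in miR-185-inh livers than in ctrl-inh livers. Values are log2 signals relative to each array's 75th percentile, a difference is miR-185-inh minus ctrl-inh on that log2 scale, and a call is a limma p under 0.05 after Benjamini-Hochberg adjustment over all 25790 features. By this rule 0 of the 82 members were called, where 4.71% of all features were called, 1.24% higher and 3.47% lower. At an unadjusted p under 0.05 there were 6 members (7.32%), 3 higher and 3 lower, against 20.2% of all features. Differences lay above zero in 43 members and below zero in 39, with a median of 0.0032, where the median over all features was -0.033.

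The interval of each difference reflects the sample-to-sample spread of the probe used. It covers neither a bias between the slides nor a disagreement between probes of a gene. In 80 of the 82 members the 95% interval lay within a 1.5-fold change either way, and in 77 within a 1.25-fold change. Over all 25790 features these counts were 21165 and 11429. The median SE was 0.074 for the members and 0.10 for all features. Small subunit genes had a median difference of 0.028, with 18 above zero and 14 below, and large subunit genes a median of -0.0008, with 25 on each side. No member had groups that did not overlap, against 0.857% of all features.

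**Figure D1:**
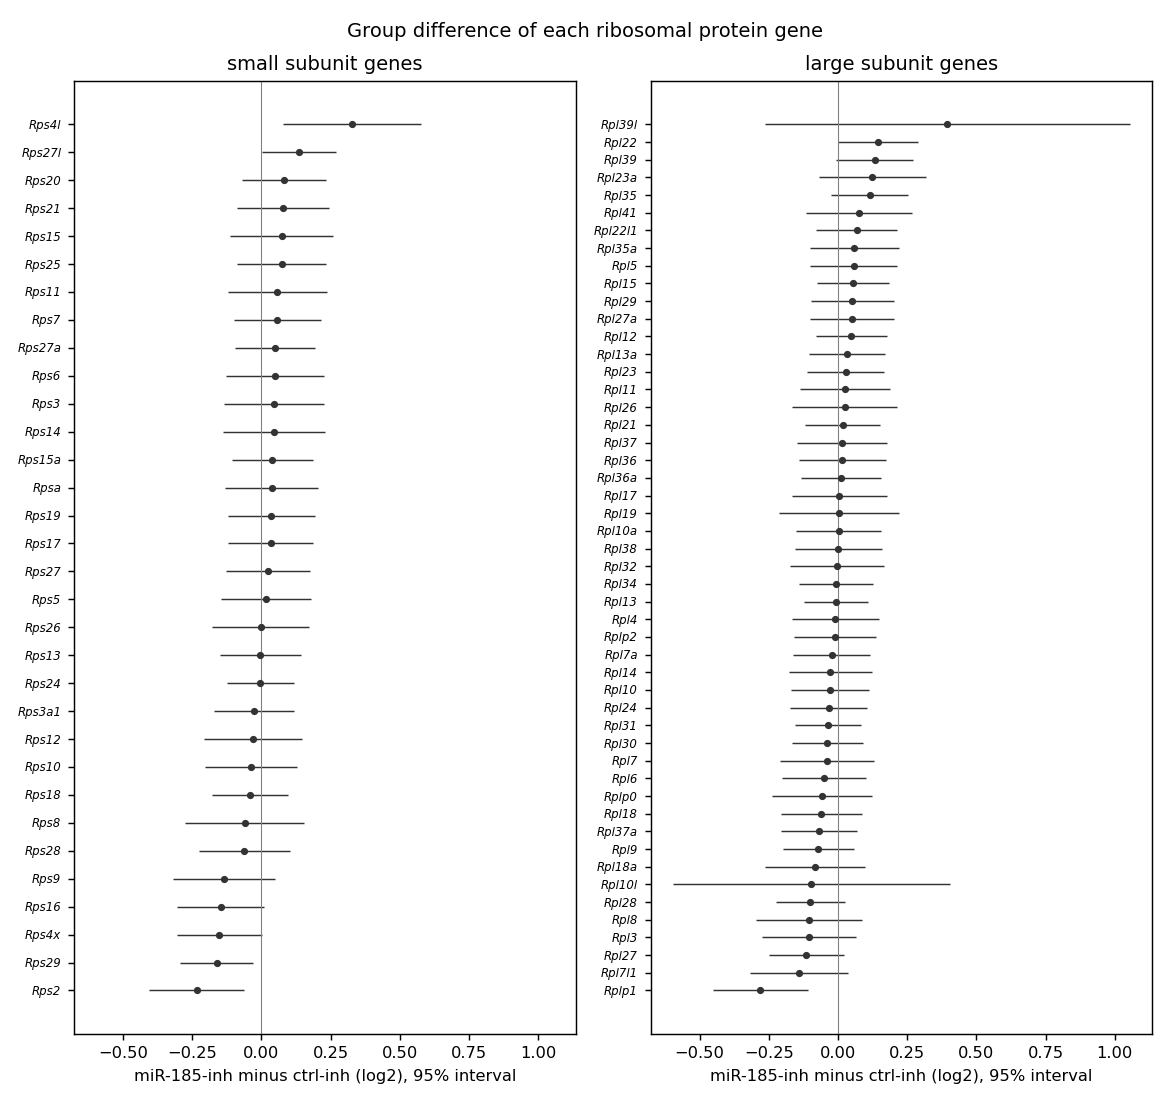
Difference between miR-185-inh and ctrl-inh livers in log2 units (x axis) for each of the 32 small subunit genes (left) and 50 large subunit genes (right), with points for the estimate and lines for its 95% interval from limma. The estimates run from -0.28 (Rplp1) to 0.40 (Rpl39l), and the widest intervals belong to Rpl39l and Rpl10l.

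Probes of this family are among the brightest on the array. The probe used for 76 of the 82 members fell in the brightest 10% of all features, which says that the probe signal was strong and does not rank transcripts. The 2503 other features in that class gave a comparison at like signal, and 14 of them (0.559%) were called, 3 higher and 11 lower. Their median difference was -0.023, and 10.1% had an unadjusted p under 0.05.

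**Figure D2:**
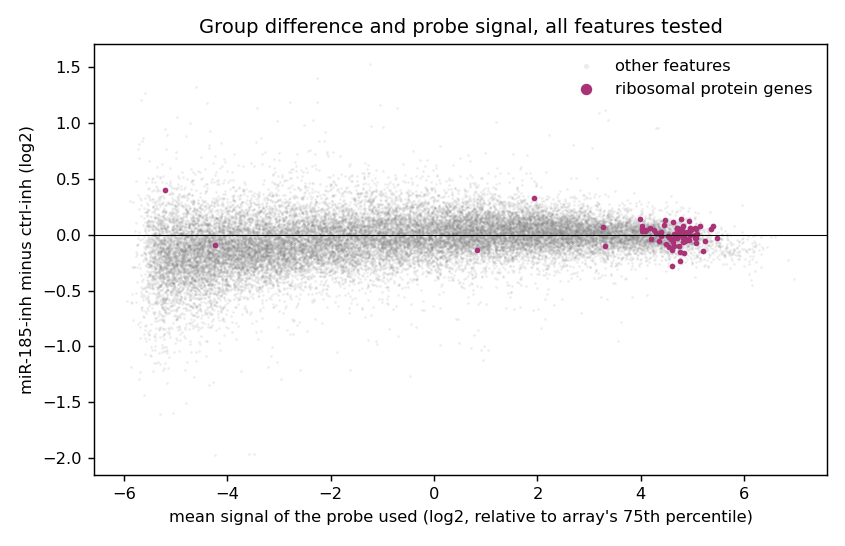
Difference between the groups in log2 units (y axis) against the mean log2 signal of the probe used (x axis) for all 25790 features, with the 82 ribosomal protein genes in colour. Most members cluster at the bright end, where differences of other features are small as well. Rpl39l and Rpl10l are the dimmest members, and Rpl7l1 and Rps4l also lie well below the cluster.

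The stalk of the large subunit, built from Rplp0 as base and pairs of Rplp1 and Rplp2, recruits the elongation factors that drive each step of translation. Rplp1 had the smallest p of the family. Its log2 signal ran from 4.56 to 4.98 in ctrl-inh livers with a median of 4.72, and from 4.23 to 4.72 in miR-185-inh livers with a median of 4.43. The groups overlapped, with 4 ctrl-inh livers above every miR-185-inh liver and 6 miR-185-inh livers below every ctrl-inh liver. The difference was -0.28 (SE 0.082), a level 0.823 times that of ctrl-inh, with an unadjusted exact permutation p of 0.00357 (two-sided, n = 8 and 8) and an adjusted limma p of 0.0585. All 8 miR-185-inh livers lay below the ctrl-inh mean, yet the adjusted p missed the threshold.

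The other stalk genes had smaller estimates by the probe used for each. For Rplp2, which forms a dimer with Rplp1 in the stalk, the signal ran from 4.40 to 4.77 (median 4.50) in ctrl-inh and from 4.28 to 4.64 (median 4.56) in miR-185-inh livers. The ranges lay largely on top of each other, and the difference was -0.01 (95% interval -0.16 to 0.14). Rplp0 ran from 5.14 to 5.51 (median 5.23) and from 4.88 to 5.41 (median 5.28), a difference of -0.06 (95% interval -0.24 to 0.12). The 3 probes of Rplp0 gave differences from -0.15 to 0.41, so its size and sign depend on the probe. Whether Rplp1 differs from its partners was not tested.

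Rps2, a small subunit protein at the channel through which mRNA enters, gave the next smallest p. Its signal ran from 4.69 to 5.09 (median 4.87) in ctrl-inh and from 4.41 to 4.91 (median 4.66) in miR-185-inh livers. Low values were those of miR-185-inh mice 6, 7, 8 and 12, which lay below every ctrl-inh liver, while miR-185-inh mouse 1 lay within the upper part of the ctrl-inh range. The difference was -0.23 (SE 0.081), with an adjusted limma p of 0.108 and an unadjusted exact permutation p of 0.0118.

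Rps29, a small zinc-binding protein of the small subunit, ran from 4.78 to 5.17 (median 4.87) in ctrl-inh and from 4.59 to 4.87 (median 4.76) in miR-185-inh livers. All 8 miR-185-inh livers lay below the ctrl-inh mean and 4 ctrl-inh livers lay above every miR-185-inh liver. The difference was -0.16 (SE 0.063), with an adjusted limma p of 0.150 and an unadjusted exact permutation p of 0.00451. Rps4x, the X-linked form of a small subunit protein, had a difference of -0.15 and an adjusted p of 0.249 by limma, and Rps16, a protein of the small subunit head, also had -0.15, with an adjusted p of 0.278.

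Rps4l, a paralog of Rps4x, gave the largest positive difference after that of Rpl39l, whose probe was dim. Its signal ran from 1.39 to 2.20 (median 1.80) in ctrl-inh and from 1.91 to 2.59 (median 2.002) in miR-185-inh livers. Mouse 8 was the highest of the miR-185-inh group, and only 2 miR-185-inh livers lay above every ctrl-inh liver. The difference was 0.33 (SE 0.12), a level 1.25 times that of ctrl-inh, with an adjusted limma p of 0.121 and an unadjusted exact permutation p of 0.0159. Under normexp background correction in place of the scanner's own, Rps4l was called higher, by 0.49 with an adjusted limma p of 0.0192.

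Rps27l, a paralog of Rps27 known as a target of p53, ran from 4.62 to 4.86 (median 4.65) in ctrl-inh and from 4.66 to 5.02 (median 4.80) in miR-185-inh livers. Here 3 miR-185-inh livers lay above every ctrl-inh liver, and the difference of 0.14 (SE 0.063) had an adjusted limma p of 0.233. Rps27 itself had a difference of 0.02 (95% interval -0.13 to 0.17) by the probe used. That probe gave the lowest of its 4 differences, which ran up to 0.15, so the contrast with Rps27l depends on the probe. Rpl22, an RNA-binding protein of the large subunit, ran from 3.76 to 4.07 (median 3.89) and from 3.89 to 4.32 (median 4.03). The difference was 0.14 (SE 0.068), with an adjusted limma p of 0.246, while its paralog Rpl22l1 had 0.07 (95% interval -0.08 to 0.21).

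**Figure D3:**
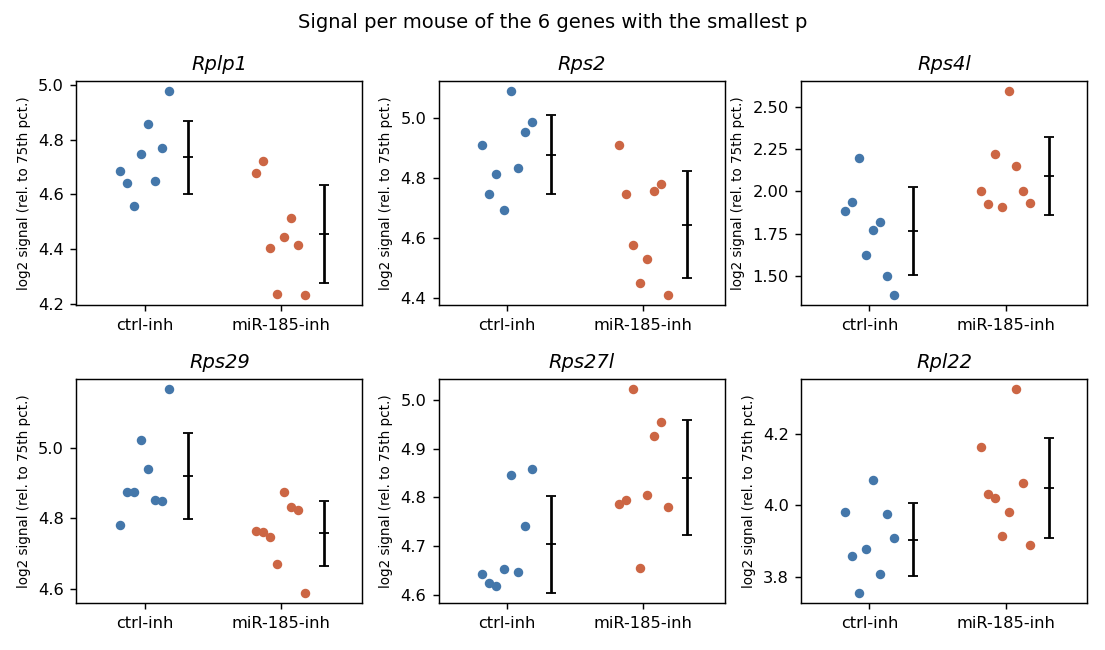
Log2 signal relative to the array's 75th percentile (y axis, a separate scale in each panel) of Rplp1, Rps2, Rps4l, Rps29, Rps27l and Rpl22 in each of the 8 ctrl-inh and 8 miR-185-inh livers (points, in order of mouse number), with bars for the mean and SD. The groups overlap in all 6 panels, and Rplp1 and Rps29 have every miR-185-inh liver below the ctrl-inh mean.

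Among other large subunit genes named by the smallest p, Rpl39 had a difference of 0.13, Rpl23a of 0.12 and Rpl35 of 0.11, with adjusted limma p-values of 0.270, 0.480 and 0.355. In Rpl39 and Rpl35, 7 of the 8 miR-185-inh livers lay above the ctrl-inh mean, and in Rpl23a 6 of 8. Rpl3 and Rpl8, which lie close to the centre where peptide bonds form, had differences of -0.11 and -0.10, with adjusted limma p-values of 0.502 and 0.564. In Rpl8, 1 outlier spot was left out in each group, so 7 livers per group entered. The remaining large subunit genes of this rule were Rpl27 (-0.11), Rpl28 (-0.10), Rpl7l1 (-0.14) and Rpl9 (-0.07), and the small subunit genes were Rps9 (-0.13) and Rps20 (0.08), and their adjusted p-values lay between 0.338 and 0.575.

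Further pairs of paralogs were measured. Rpl39l and Rpl10l are known from testis, and both probes were dim here. Rpl39l ran from -6.97 to -4.16 (median -5.20) in ctrl-inh and from -5.45 to -3.94 (median -5.17) in miR-185-inh livers, with a difference of 0.40 whose 95% interval, -0.26 to 1.05, was the widest in the family. Rpl10l differed by -0.10 (95% interval -0.59 to 0.40) and Rpl10, its X-linked counterpart, by -0.03 (95% interval -0.17 to 0.11). Rpl7, related to Rpl7l1, differed by -0.04 (95% interval -0.21 to 0.13), and Rpl36a by 0.01 (95% interval -0.13 to 0.16). Rpl36al, the autosomal copy of Rpl36a, lies outside the symbol rule and differed by 0.16, with an adjusted limma p of 0.320. Close copies bear on all these values, since the RefSeq table holds 318 pseudogene symbols named after 63 of the members, and what each probe can bind was not tested.

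The family varied from liver to liver as a block. For each liver the median over members of the deviation from the gene's mean over all arrays was taken. It ran from -0.11 to 0.16 in ctrl-inh livers (mean -0.0026 ± 0.10 SD, n = 8) and from -0.23 to 0.15 in miR-185-inh livers (mean -0.0022 ± 0.13 SD, n = 8). The group means differed by far less than the spread within either group.

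A few mice stood out within each group. In ctrl-inh mouse 12, 77 of 82 members lay above their own mean, and 53 members had their highest ctrl-inh value there. Mouse 8 of the same group had 80 of 82 above. Among miR-185-inh livers, mouse 12 was the lowest for 55 members and mouse 7 for 24, with 3 of 82 members above their mean in each, while mouse 9 was the highest for 36. Small and large subunit genes moved together, and the small subunit median minus the large one stayed between -0.03 and 0.04 in every liver.

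**Figure D4:**
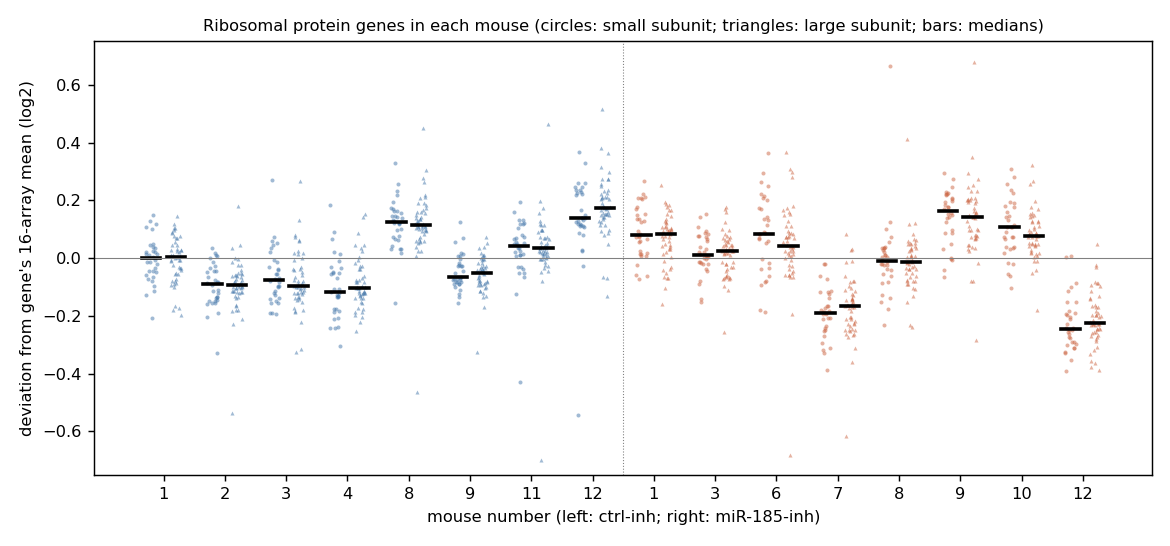
Deviation of each ribosomal protein gene from its own mean over 16 arrays, in log2 units (y axis), for each mouse (x axis), with small subunit genes as circles, large subunit genes as triangles and black bars for their medians. Of 1309 points, 4 lie outside the axis limits of 0.75. The medians of both subunits rise and fall together across livers, and both groups hold high and low mice.

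Other bright features shared this movement. The same median over the other features of the brightest 10% was 0.17 in ctrl-inh mouse 12, 0.11 in ctrl-inh mouse 8, -0.16 in miR-185-inh mouse 7 and -0.21 in miR-185-inh mouse 12. The array's 75th percentile signal, to which all values are relative, was 2367 in ctrl-inh mouse 12, the lowest of the 16 arrays, and reached 3581 in ctrl-inh mouse 2. Among miR-185-inh livers it was 3467 in mouse 7 and 2749 in mouse 9, with family medians of -0.18 and 0.15. It was nearly equal in miR-185-inh mice 12 and 10, at 3162 and 3146, though their family medians were -0.23 and 0.08. The part of array brightness in the shift of the family was not tested.

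When each array was centred on the family's own median deviation, a setting chosen after seeing the data, the median SD of a member fell from 0.12 to 0.062 in ctrl-inh and from 0.16 to 0.076 in miR-185-inh livers. On this scale a value says how a gene stands relative to the rest of the family. Rplp1 and Rps2 were then called lower, by -0.28 (limma adjusted p = 0.0143) and -0.23 (limma adjusted p = 0.0184), and no other member was called, where 4.92% of all features were. Centred Rplp1 ran from 4.64 to 4.86 in ctrl-inh and from 4.33 to 4.70 in miR-185-inh livers, and centred Rps2 from 4.80 to 4.97 and from 4.51 to 4.83, so that both still overlapped. Both genes also passed the threshold after quantile normalization and with the percentile taken over probes detected on all arrays. Without miR-185-inh mouse 1 or mouse 3, Rplp1 was called as well, with adjusted limma p-values of 0.0347 and 0.0261.

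Among ctrl-inh livers, values of the family differed between the rows of the slide, as did those of all features. Each slide held its arrays in 2 rows, with mice 1 to 4 of ctrl-inh and mice 1, 3, 6 and 7 of miR-185-inh in row 1 and the others in row 2. Lower mouse numbers thus lay in row 1, and row and mouse order cannot be told apart. Within ctrl-inh livers, 80 of 82 members were higher in row 2 than in row 1, by a median of 0.14, and the exceptions were Rps4l and Rpl39l. All features moved the same way, with 17337 of 25790 above zero and a median of 0.09. None passed limma's adjusted threshold in that comparison, in which 4.65% of all features did, and 15 members (18.3%) had an unadjusted p under 0.05 against 26.8% of all features. Within miR-185-inh livers the median was 0.01, with 0 members and 0% of features called. Taken from the same values, the group difference had a median of 0.07 in row 1, with 64 of 82 members above zero. In row 2 its median was -0.06, with 18 above zero. Over all features these medians were 0.0070 and -0.07.

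No member was called in either row, where 0% of features were called in row 1 and 1.81% in row 2. At an unadjusted p under 0.05 there were 0 members in row 1, against 17.9% of all features, and 4 (4.88%) in row 2, against 21.2%. The row 2 difference minus the row 1 difference was below zero in 79 of 82 members, with a median of -0.14, and all features had a median of -0.10 with 17062 of 25790 below zero. In 0 members did limma's interaction term pass the adjusted threshold, where 0.372% of features did. At an unadjusted p under 0.05 there were 2 members (2.44%), against 14.8% of all features, namely Rpl39l and Rps18, named after their values were seen. Rplp1 was lower in both rows, by -0.15 in row 1 and -0.41 in row 2, as was Rps2, by -0.12 and -0.35, with an adjusted interaction p of 0.438 and 0.502 by limma. Rps4l differed by 0.10 in row 1 and by 0.55 in row 2, with an adjusted interaction p of 0.352 by limma, and within ctrl-inh livers it was lower in row 2 by -0.29.

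Different probes of the same gene did not always give the same answer. The 82 members had 170 probes that passed the filter, 51 members had more than 1, and Rpl17 had 7. All probes of a gene gave differences of one sign in 25 of these 51 genes and of both signs in 26. The median spread between the lowest and highest probe was 0.11, where the median SE of a member was 0.074. A range over several estimates tends to exceed a single SE, and the part of noise in this spread was not tested. Rps2 was among the closest, with -0.23 and -0.22. All 3 probes of Rps29 were below zero, from -0.16 to -0.10, and all 3 of Rpl39 above, from 0.11 to 0.16. Probes of both signs were held by Rps16 (-0.15 to 0.17), Rpl27 (-0.11 to 0.17) and Rpl7 (-0.11 to 0.10), among others. The direction given for these genes above is that of the brightest probe. Rplp1, measured by 1 probe, offers no such check.

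**Figure D5:**
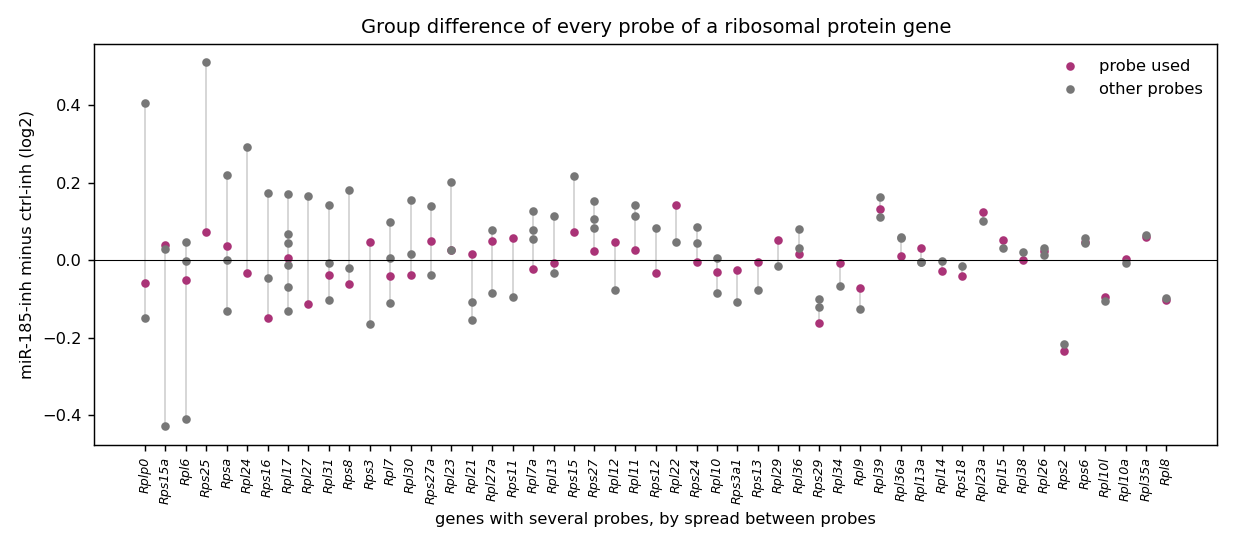
Difference between miR-185-inh and ctrl-inh livers in log2 units (y axis) for every probe of the 51 ribosomal protein genes with several probes (x axis, ordered by the spread between probes), with the brightest probe, used throughout, in colour. The spread is widest in Rplp0, where probes run from -0.15 to 0.41, and near zero at the right end.

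In the fit over all 35470 probes, 2 member probes were called, both higher and neither the one used for its gene, where 4.28% of probes were called. One belongs to Rps25, a small subunit protein needed for initiation at some viral mRNAs, and ran from -1.01 to -0.42 (median -0.87) in ctrl-inh and from -0.81 to 0.32 (median -0.30) in miR-185-inh livers. Its difference was 0.51 (SE 0.14, limma adjusted p = 0.0403), whereas the brightest probe of Rps25 gave 0.07. The other belongs to Rps15, a protein of the small subunit head, and ran from 3.38 to 3.56 (median 3.46) and from 3.52 to 3.89 (median 3.71). Its difference was 0.22 (SE 0.059, limma adjusted p = 0.0451), against 0.07 for the brightest probe. Rplp0 held the widest disagreement, with -0.15, -0.06 and 0.41 over its 3 probes, and which probe stands for the transcript was not tested.

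Other lists of the translation machinery held few calls or none. Other TOP mRNAs, which encode elongation factors and associated proteins, numbered 22 tested, 9 above and 13 below zero, with a median of -0.02 and 0 called. In this list Rack1, a scaffold on the small subunit, had the smallest p, with a difference of -0.17 and an adjusted limma p of 0.266. Of 34 genes of ribosome biogenesis, 20 lay above and 14 below zero, with a median of 0.02 and 0 called. Mybbp1a, a nucleolar regulator, differed by 0.21 (limma adjusted p = 0.123) and Ubtf, the activator of ribosomal RNA transcription, by -0.29 (limma adjusted p = 0.170). With outlier spots left out, Ubtf had a value in 7 ctrl-inh and 6 miR-185-inh livers, and Rack1 in 7 and 8. Of 76 genes of the mitochondrial ribosome, a separate ribosome in the organelle, 45 lay above and 31 below zero, with a median of 0.01 and 0 called. At an unadjusted p under 0.05 the counts were 0 of 22, 3 of 34 and 10 of 76, where 20.2% of all features passed. For the genes that control ribosomal protein genes or TOP mRNAs, given next, that count was 5 of 18.

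Of 18 genes that control ribosomal protein genes or TOP mRNAs, 9 lay above and 9 below zero, and 1 (5.56%) was called, a share near the 4.71% of all features. It was Gabpa, the DNA-binding subunit of the factor GABP, which recognises the CCGGAAG core counted above. Gabpa ran from 0.34 to 0.68 (median 0.62) in ctrl-inh and from 0.64 to 1.33 (median 0.998) in miR-185-inh livers, and 6 miR-185-inh livers lay above every ctrl-inh liver. The difference was 0.35 (SE 0.094), a level 1.28 times that of ctrl-inh, with an adjusted limma p of 0.0398. The call was lost with the mean of its 2 probes, which gave 0.17 (limma adjusted p = 0.283), with row and column as covariates (0.0567) and without a filter on dim probes (0.0553), as well as within either row alone (0.137 and 0.260) and with arrays centred on the ribosomal protein genes (0.121). It was also lost without any 1 of 13 of the 16 mice, at differences of 0.30 to 0.37. Larp4b, Larp4 and Yy1 followed in that list with 0.20, 0.20 and 0.14 and adjusted limma p-values of 0.0641, 0.0718 and 0.123, and the list's median difference was 0.0001.

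All 12 hepatocyte markers were well above background on all 16 arrays and 0 were called. All 11 Kupffer cell and macrophage markers and all 8 endothelial markers carried that flag on all 16 arrays too, and 8 of 12 neutrophil markers did. Detection by this flag therefore does not identify the tissue. Markers of neutrophils were below zero in 12 of 12, where 14965 of 25790 features were, with a median of -0.98 and 2 called lower (16.7%, against 3.47% of all features), Ltf (-1.97, limma adjusted p = 0.0241) and Ngp (-1.22, limma adjusted p = 0.0428). Their summed linear level relative to the 75th percentile ran from 11.52 to 55.7 in ctrl-inh and from 7.73 to 50.8 in miR-185-inh livers. All 11 Kupffer cell and macrophage markers were also below zero, with a median of -0.15, 0 called and summed levels of 90.4 to 136 and 70.1 to 124. Of the other lists, 4 of 11 lymphocyte, 1 of 5 erythroid, 4 of 8 endothelial, 7 of 8 stellate cell and 3 of 7 cholangiocyte markers were above zero, and 0 were called. The part of cell makeup in the ribosomal protein values was not tested.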

How the data were processed

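The deposited scanner files hold a processed intensity per spot, background-subtracted and detrended with Feature Extraction 11.5.1.1 per the file headers, while the submitters' processing notes name version 9.1. The authors' deposited value table holds log2 of that intensity minus 1 constant per array, with column medians from -1.30 to -1.22, with the choice of constant unstated. Values were recomputed as log2 intensity relative to the 75th percentile of the non-control spots of each array. Outlier spots were left out, spots of 1 probe averaged, and a probe was kept where 8 or more of 16 arrays flagged it above background. The brightest probe stood for a gene. Names came from unversioned accessions in the RefSeq table of GRCm38.p6 (26762 of 55681 probes), whose coordinates were not used since the grid is on mm9, and the sequences shown come from RefSeq promoter windows of GRCm38.p6.

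Groups came from the treatment labels. The test was limma 3.58.1 (R 4.3.3; lmFit, eBayes), two-sided, and p-values were adjusted by Benjamini-Hochberg over all 25790 features. For single genes, group means were also compared by exact permutation, two-sided, over all 12870 assignments of the 16 samples, which allows a smallest p of 0.000155. The procedure was tested on simulated data. Members and lists were chosen with earlier results of these data known. Named genes are the 20 members of smallest p, the stalk genes, the paralog pairs and up to 4 genes of smallest p per translation list. Alternatives were normexp (offset 50, run on the median spot signal), quantile normalization, a percentile over detected probes, the authors' table, other probe filters and summaries, other eBayes and weight settings, slide position, a replicate block and leaving out each mouse. Mouse numbers shared by both groups were not treated as pairs in the main test. The correlation of their deviations ran from -0.13 to 0.11 over 5 numbers, which shows no pairing but cannot exclude one.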

Additional observations from a re-analysis of the deposited data

Results flagged for a closer look

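A few values, 5 in all, lay far from the rest of their group of mice, where Dixon's gap test at 95% was run on 98 sets of values and chance marks about 1 in 20. They are given with no explanation. Rps4l in miR-185-inh mouse 8 had the highest signal of its group, 2.59 with the nearest mouse at 2.22. Rpl35 in ctrl-inh mouse 3 had the lowest, 4.29 with the nearest at 4.52. Ubtf was lowest in ctrl-inh mouse 4, at 6.13 with the nearest at 6.45, Rrn3, which brings RNA polymerase I to ribosomal DNA, was lowest in miR-185-inh mouse 9, at 1.72 with the nearest at 2.005, and Gabpa was lowest in ctrl-inh mouse 12, at 0.34 with the nearest at 0.57.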

How the results depend on the processing

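The counts of 0 members called higher and 0 called lower changed under some settings. Called higher were 1 under normexp (Rps4l) and 1 under quantile normalization (Rps27l). Called lower were 2 (Rplp1 and Rps2) under quantile normalization, 2 under the percentile over detected probes, 2 under centring on the family and 1 (Rplp1) with eBayes trend and robust. Leaving out 1 mouse gave 0 to 1 lower and 0 higher, and a family median from -0.02 to 0.04. No other setting run changed either count. The family median stayed between -0.06 and 0.07 over all settings run, less than 1 SD between mice from the value reported. Whether shared mouse numbers pair the samples is not known. The replicate block over 5 such numbers left 0 members and 0 features called, and turned Rps27 to -0.0328 and Rpl10l to 0.0497. Under it Gabpa lost its call, at 0.30 with an adjusted limma p of 0.458.

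Of 434 values of named members under other settings, 26 changed sign, all of them small or imprecise and none called. Under normexp these were Rps9 (0.0115), Rpl9 (0.0174), Rps27 (-0.00565), Rpl10l (0.0119) and Rpl36a (-0.00375). Quantile normalization gave Rplp2 0.0137, Rpl10 0.0103 and Rpl10l 0.0429, and the percentile over detected probes gave Rps27 -0.00190 and Rpl36a -0.0146. The mean of the probes gave Rpl27 0.0266 and Rplp0 0.0662. Array weights gave Rplp2 0.0250 and Rpl10l 0.0233. Row 1 alone gave Rpl3 0.0127, Rpl39l -0.415, Rplp0 0.0411, Rplp2 0.0674, Rpl10 0.0072 and Rpl7 0.0951, and row 2 alone gave Rpsa -0.0248, Rpl22l1 -0.0125, Rpl10l 0.0156 and Rpl36a -0.0908. Leaving out 1 mouse moved Rplp2 between -0.0290 and 0.0245, Rpl10 between -0.0499 and 0.00476 and Rpl36a between -0.0121 and 0.0399. Without a change of sign, it moved these differences by over 1.5 times: Rpl35 (0.0753 to 0.138), Rpl23a (0.0809 to 0.170), Rpl3 (-0.139 to -0.0690), Rpl39l (0.170 to 0.571), Rpl8 (-0.146 to -0.0669), Rps20 (0.0453 to 0.115), Rpsa (0.000733 to 0.0681), Rplp0 (-0.0881 to -0.0115), Rps27 (0.00254 to 0.0628), Rpl22l1 (0.0392 to 0.111), Rpl10l (-0.271 to -0.00532) and Rpl7 (-0.0742 to -0.00617). The cause of these changes was not tested. Rpl39l was the only member not well above background on all 16 arrays.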
